A study of Mus musculus with 9 samples.

Results

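Peroxisome proliferator-activated receptors (PPARs) are nuclear receptors that bind fatty acids, pair with retinoid X receptors and switch on genes for the uptake, storage and oxidation of fat. The 8 genes described here are the receptors Ppara and Pparg, with Angptl4, Pdk4, Plin2 and the oxidation enzymes Cpt1a, Cpt2 and Acadm. They were taken by symbol from the authors' deposited gene table, which holds 17511 genes, and all 8 had a row there. They were also followed at their loci through peaks of open chromatin and of Cdx2, a homeodomain protein that keeps gut epithelium intestinal. In the colon, surface epithelial cells burn mainly fatty acids of bacterial origin in their mitochondria, and PPARG is abundant in them.

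The series compared mouse colon epithelial cells, detached from fresh colon with 5 mM EDTA, between libraries labelled DKO and Wt. The DKO libraries carried Cdx1-/- and Cdx2f/f alleles with the tag vill (+), and their mice received tamoxifen for 6 days. The Wt libraries carried the same Cdx1-/- and Cdx2f/f alleles with the tag vill (-) and the same tamoxifen, so the groups differ in the vill tag alone by their labels. RNA-seq and ATAC-seq, in which a transposase cuts accessible DNA, each had 2 DKO and 2 Wt libraries. A single Cdx2 ChIP-seq library came from vill (-) cells tagged untreated. The labels give no age and do not spell out vill, and none says that replicates came from separate mice, so p-values may measure technical spread only.

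RNA libraries held 16403301 to 25494309 estimated reads. ATAC peaks numbered 40101 and 23961 in DKO replicates 1 and 2, against 48163 and 53943 in Wt replicates 1 and 2, and the Cdx2 list held 5179. In the authors' deposited table the log2 fold change of Cdx2 was -0.27 with an SE of 0.21 and an adjusted p of 0.301, and a gene total does not resolve a floxed exon, so it does not check the labels. Cdx1, null by label in both groups, stood at -1.06 with an SE of 0.23 and an adjusted p of 2.08e-05 in the authors' deposited table. The deposited transcript estimates carry transcript IDs that nothing used here pairs with genes. RNA values below are therefore the authors' fold changes, DKO over Wt on the log2 scale, with the mean normalized count over the 4 libraries and no value per library. A change was called at a Benjamini-Hochberg adjusted p under 0.05. In bulk RNA, fewer cells of a type and less RNA per cell cannot be told apart.

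Angptl4, Pdk4, Ppara, Plin2 and Cpt1a rose in the DKO libraries, Cpt2 fell, and Acadm and Pparg did not pass the test. Of the 8 genes, the authors' deposited table thus called 5 higher, where 18.5% of all genes were called higher, and 1 lower, where 18.3% were called lower. In either direction 6 of 8 were called, against 36.8% of all genes and 44.3% of genes averaging at least 50 normalized counts. Changes of at least 2-fold were seen in Angptl4, Pdk4 and Ppara, all higher in DKO, where 11% of all genes were higher by that much. Mean levels ran between 236 normalized counts for Ppara and 6771 for Cpt1a, which are not scaled for gene length.

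**Figure D1:**
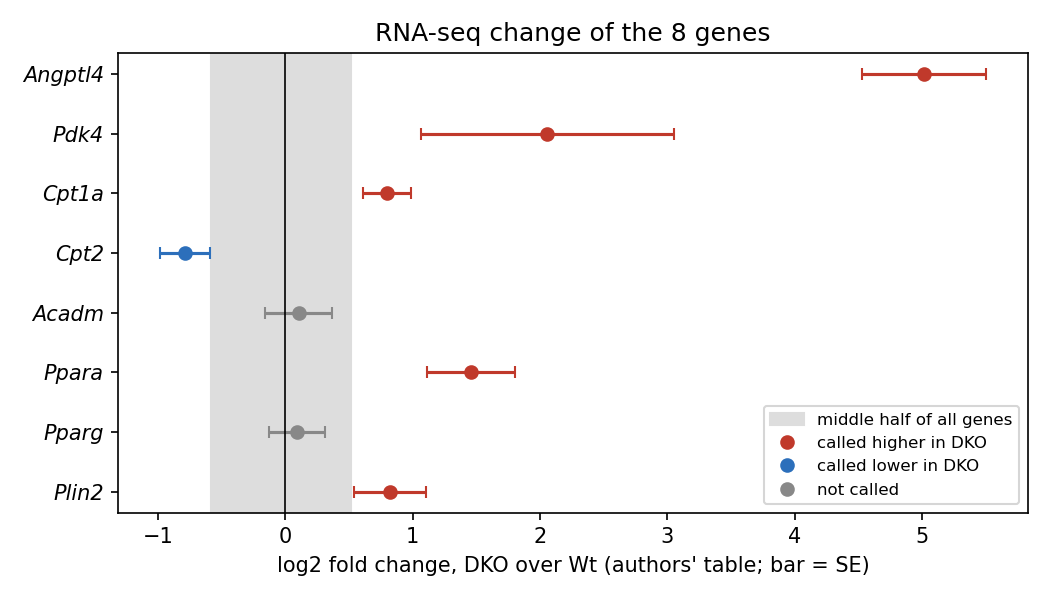
Log2 fold change, DKO over Wt, of the 8 genes in the authors' deposited table (points, bars are the SE), with the middle 50% of all 17511 genes shaded. Angptl4 stands at 5.02 and Pdk4 at 2.05, Cpt2 is the gene below the shaded range at -0.79, and Acadm and Pparg lie inside it.

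Of the receptors, Ppara, which drives fatty acid oxidation in liver and gut, rose and Pparg, the receptor of fat cells and colon epithelium, did not pass the test. Ppara stood 2.75-fold higher in DKO than in Wt in the authors' deposited table, at 1.46 on the log2 scale with an SE of 0.35 and an adjusted p of 6.59e-05. For Pparg the authors' deposited table has 0.09 with an SE of 0.22 and an adjusted p of 0.799, at a mean of 1693 normalized counts.

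The Ppara locus (chr15:85734910-85806851, GRCm38) lost most of its listed open sites in DKO. Within 10 kb of the gene the lists held 1 and 2 peaks in DKO replicates 1 and 2, against 9 and 7 in Wt replicates 1 and 2. At the gene start, 1 merged region (chr15:85735041-85735945) held a peak of all 4 libraries. Fold enrichment over local background was 3.11 and 2.96 in DKO and 8.49 and 7.69 in Wt. The DKO peaks did not overlap each other and were stronger than 9.75% and 10.1% of the peaks in their own lists. Those in Wt were stronger than 90.9% and 86.4%. The DKO replicate 2 peak of this region lay outside the 300-base window at the annotated start (250 bases before it to 50 after). At a -log10 q of at least 5, and with lists cut to equal number, that window held a peak in both Wt libraries and in neither DKO library. The regions chr15:85754164-85754568 and chr15:85776793-85777113, both inside the gene, were listed in both Wt libraries and in neither DKO library, as were chr15:85734734-85734957 at the gene's edge and chr15:85811229-85811894 beyond its end. Cdpf1, Gm46529 and Pkdrej also lie within 10 kb, so a region there need not belong to Ppara. Across this locus the lists held fewer sites in DKO while the RNA rose.

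Pparg (chr6:115360879-115490404) had peaks at its first start in all 4 lists and at its second start in the Wt lists alone. The region over the first start (chr6:115360793-115362037) was listed in all 4 libraries. Its strongest peaks had a fold enrichment of 5.09 and 6.08 in DKO and 9.03 and 9.90 in Wt, without overlap between the groups. Ranked within their own lists the groups did overlap. These peaks were stronger than 91.2% and 98.3% of the list in DKO, and 93.2% and 95.7% in Wt. The 5.09 peak of DKO replicate 1 lay 0.597 to 0.785 kb past the first start, where Wt replicate 1 had a peak of 4.45. On the window at the first start, DKO replicate 1 had a peak of 3.56, stronger than 29.9% of its list. At a -log10 q of at least 5, and with lists of equal number, the window at the first start no longer held a peak in all 4 libraries. The window at the second start held no peak in either DKO list and peaks of 5.04 and 5.22 in Wt. At the third start, no library listed a peak. Inside the gene, 3 further regions (chr6:115397591-115397874, chr6:115463056-115463249 and chr6:115480393-115480553) were listed in both Wt libraries and in neither DKO library.

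Cdx2 peaks were listed in and around Pparg. In the span lay chr6:115367097-115367505, with a fold enrichment of 4.41, and chr6:115466659-115467049, with 6.57, and 5.94 kb beyond the span's end lay chr6:115496347-115496544, with 4.47. The strongest of them exceeded 71.5% of all Cdx2 peaks on the assembled chromosomes and the weakest 12.6%. None of these 3 peaks overlapped an ATAC region of any library, and over the genome 45.8% of Cdx2 peaks overlapped one. A further 4 Cdx2 peaks lay 10.7 to 27.7 kb before the span, of which 1 (chr6:115349857-115350168) overlapped an ATAC region, listed in 1 Wt library.

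Angptl4, a secreted inhibitor of lipoprotein lipase and a classical PPAR target, showed the largest change of the 8. It stood 32.4-fold higher in DKO than in Wt in the authors' deposited table, at 5.02 on the log2 scale with an SE of 0.49, an adjusted p of 4.23e-24 and a mean of 2362 normalized counts. Only 0.571% of the 17511 genes had a higher fold change. The locus (chr17:33774900-33781575) carried few peaks and no Cdx2 peak within 50 kb. Within 10 kb the lists held 1 and 1 peaks in DKO replicates 1 and 2, against 2 and 3 in Wt replicates 1 and 2. A site inside the gene (chr17:33779327-33779551) was listed in both Wt libraries, at a fold enrichment of 3.66 and 4.44, and in neither DKO library. A site 7.08 kb beyond the higher-coordinate end (chr17:33788659-33789131) showed the same pattern, at 5.33 and 4.86 in Wt. Near that end of the gene, chr17:33781203-33781365 was listed in DKO replicate 1 at 3.07 and in Wt replicate 2 at 3.71, and thus did not separate the groups. No site was listed in both DKO libraries and absent from both Wt libraries, while the RNA rose.

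Pdk4, a kinase that shuts off pyruvate dehydrogenase and so spares glucose for fat as fuel, rose with a wide error. It stood 4.15-fold higher in DKO than in Wt in the authors' deposited table, at 2.05 on the log2 scale with an SE of 0.99, an adjusted p of 0.0149 and a mean of 2504 normalized counts. Its SE was the largest of the 8, against a median SE of 0.37 over all genes, and the call was lost at an adjusted p threshold of 0.01. At the start of the gene (chr6:5483351-5496278), the region chr6:5495973-5496748 was listed in both Wt libraries, at a fold enrichment of 8.12 and 9.06, and in neither DKO library. These peaks were stronger than 89.1% and 93.0% of the peaks in their own lists. No peak was listed in either DKO library within 10 kb of Pdk4, and Wt replicate 1 held 1 more, a weak one at 3.75. No Cdx2 peak lay within 50 kb.

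Start windows of 3 genes show the range of these patterns, from a start listed in Wt alone to one listed everywhere. Shown are the 250 bases before each start, 5′ to 3′ on the gene's strand, from RefSeq on GRCm38.p6: Pdk4 at chr6:5496279-5496528 on the minus strand, the second Pparg start at chr6:115362099-115362348 on the plus strand, and Acadm at chr3:153944644-153944893 on the minus strand. Capitals mark TTTAT on either strand, the core letters of the Cdx motif, and the PPAR direct repeat, a pair of AGGTCA letters spaced by 1 base, on either strand with up to 3 mismatches.
Pdk4, peaks in both Wt libraries and neither DKO library: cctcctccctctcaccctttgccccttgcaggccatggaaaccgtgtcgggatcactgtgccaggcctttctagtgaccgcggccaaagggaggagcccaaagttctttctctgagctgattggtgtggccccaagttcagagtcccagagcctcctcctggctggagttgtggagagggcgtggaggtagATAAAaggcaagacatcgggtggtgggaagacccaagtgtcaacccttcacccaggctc
Pparg second start, peaks in both Wt libraries and neither DKO library: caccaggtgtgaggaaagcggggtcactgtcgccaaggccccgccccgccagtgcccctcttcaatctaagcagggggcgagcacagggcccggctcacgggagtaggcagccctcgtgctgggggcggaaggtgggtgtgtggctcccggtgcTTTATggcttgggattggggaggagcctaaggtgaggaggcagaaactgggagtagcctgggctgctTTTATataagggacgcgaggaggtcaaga
Acadm, peaks in all 4 libraries: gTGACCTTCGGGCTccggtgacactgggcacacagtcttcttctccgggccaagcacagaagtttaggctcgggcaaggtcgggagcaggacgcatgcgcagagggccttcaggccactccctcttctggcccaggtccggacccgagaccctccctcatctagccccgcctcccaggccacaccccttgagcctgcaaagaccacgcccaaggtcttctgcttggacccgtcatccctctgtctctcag
In the Pdk4 window, TTTAT stands once, on the opposite strand from 59 bases before the start, and in the Pparg window 2 times, from 96 and 29 bases before it, the first of them within a TTTATNG match. The Acadm window holds a single direct repeat match with 3 mismatches.

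Across the 9 start windows of the 7 genes with an entry, TTTAT was found in 3, where 25.5% of 14964 promoters of the same length hold it. The longer form TTTATNG was found in 1, the second Pparg start, where 6.78% hold it. The direct repeat with up to 3 mismatches was found in 2, those of Acadm and Plin2, where 18.7% hold it. With up to 2 mismatches it was found in the Plin2 window alone, where 2.64% of promoters hold it. These matches describe letters and not bound sites. Angptl4 had no entry.

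Plin2, which coats lipid droplets and follows their fat content, rose. It stood 1.76-fold higher in DKO than in Wt in the authors' deposited table, at 0.82 on the log2 scale with an SE of 0.28, an adjusted p of 0.00922 and a mean of 5207 normalized counts. Plin2 (chr4:86626910-86670217) had 2 Cdx2 peaks within 10 kb, and each overlapped an ATAC region of both Wt libraries. The Cdx2 peak chr4:86656380-86656739, 13.5 kb inside the gene from its start, had a fold enrichment of 6.73. The Cdx2 peak chr4:86626487-86626829 lay 81 bp past the far end of the gene span, at 7.27, stronger than 80.6% of Cdx2 peaks. The ATAC region over the inner peak was listed at 5.43 and 6.99 in Wt and in neither DKO library. The ATAC region over the outer peak was listed at 11.3 and 8.33 in Wt and in neither DKO library, and its Wt replicate 1 peak was stronger than 98.5% of that list. Over the genome, 84.9% of the regions that both Wt lists hold under a Cdx2 peak were absent from both DKO lists, so the Plin2 sites did what most such sites did. The start window of Plin2 held a weak peak in DKO replicate 1, at 3.00, none in DKO replicate 2, and peaks of 4.66 and 6.79 in Wt.

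**Figure D2:**
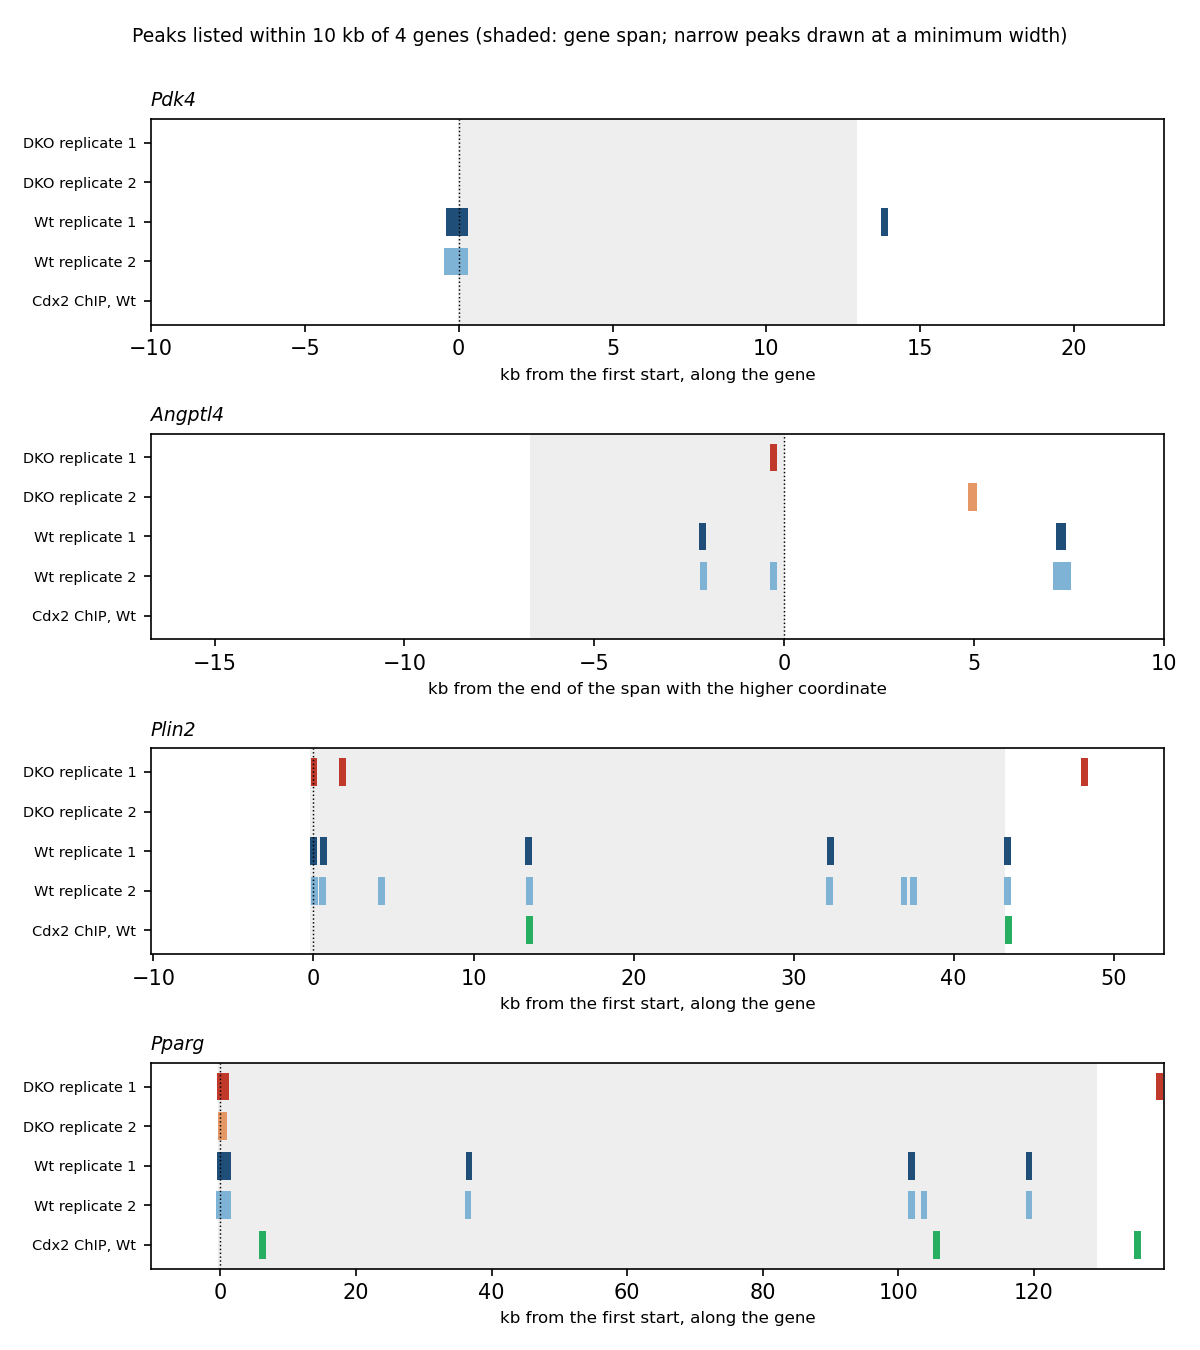
Peaks listed within 10 kb of Pdk4, Angptl4, Plin2 and Pparg, by library, against distance in kb from the first annotated start (for Angptl4, from the end of its span with the higher coordinate). The Pdk4 start carries peaks in both Wt rows and no DKO row, both Plin2 Cdx2 peaks sit over peaks of both Wt rows and no DKO row, and no Pparg Cdx2 peak sits over an ATAC peak.

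The oxidation enzymes did not move together. Cpt1a, which makes acylcarnitine at the outer mitochondrial membrane and sets the rate of oxidation, rose by 0.79 on the log2 scale in the authors' deposited table, with an SE of 0.19 and an adjusted p of 0.000128. Cpt2, which reverses that step at the inner membrane, fell by 0.79 on the log2 scale in the authors' deposited table, with an SE of 0.20 and an adjusted p of 0.00027. Acadm, the medium-chain acyl-CoA dehydrogenase of the first step of beta-oxidation, stood at 0.10 in the authors' deposited table, with an SE of 0.27 and an adjusted p of 0.801. Their means were 6771, 2105 and 2956 normalized counts in that order.

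At Cpt1a (chr19:3322326-3385735) the lists held 2 and 5 peaks in DKO replicates 1 and 2 within 10 kb, against 9 and 7 in Wt replicates 1 and 2. The start window held no peak in DKO replicate 1, a peak of 4.14 in DKO replicate 2, and peaks of 4.31 and 5.19 in Wt. Inside the gene, chr19:3325358-3325656, chr19:3334144-3334446 and chr19:3377363-3377720 were listed in both Wt libraries and in neither DKO library. Before the gene, chr19:3320221-3320336 and chr19:3321667-3321831 showed the same pattern. The nearest Cdx2 peak, chr19:3297117-3297345, lay 24981 bp before the span and overlapped an ATAC region listed in 1 Wt library. Gm36532 and Tesmin also lie within 10 kb.

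At Cpt2 (chr4:107903982-107923589) the start window likewise held no peak in DKO replicate 1, a peak of 4.27 in DKO replicate 2, and peaks of 6.33 and 7.21 in Wt. Its neighbour Czib lies within 10 kb. At Acadm (chr3:153922353-153944643), beside Rabggtb, the start window held peaks of 4.93 and 4.24 in DKO and of 9.99 and 9.16 in Wt. The Acadm start was thus listed in every library. Its peaks were stronger than 87.9% and 71.5% of those in their own lists in DKO, and 96.2% and 93.4% in Wt. Cpt1a rose and Cpt2 fell, although their starts were listed in the same 3 libraries.

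**Figure D3:**
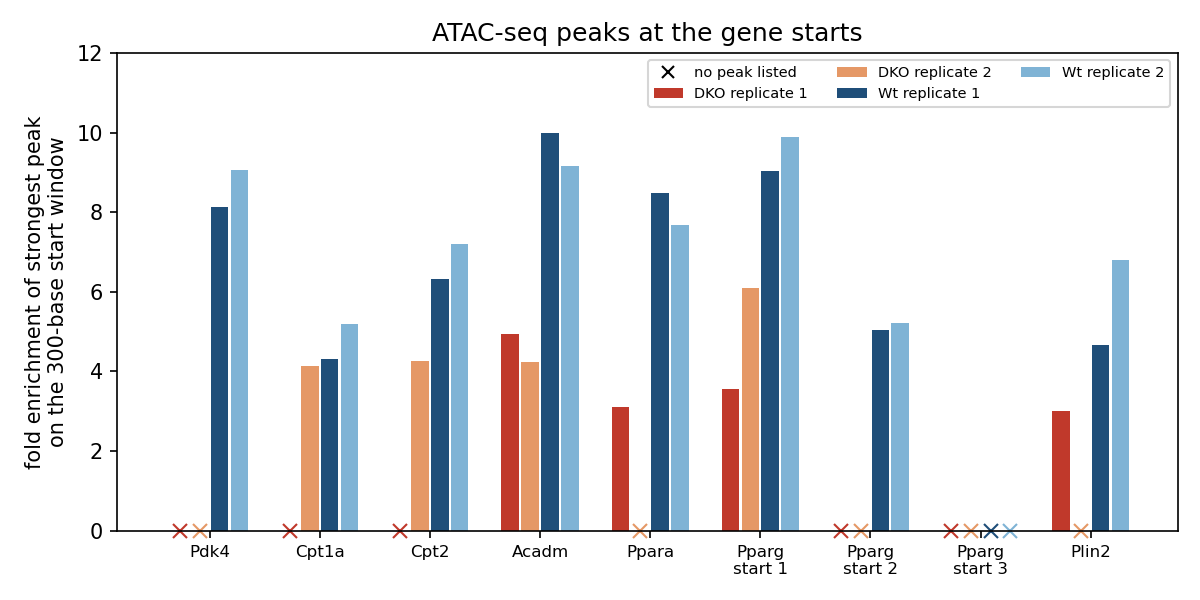
Fold enrichment of the strongest ATAC peak on the 300-base window at each annotated start, by library, with a cross where a list holds no peak. The Pdk4 and second Pparg starts have Wt bars and no DKO bar, the Acadm and first Pparg starts have 4 bars, and the third Pparg start has none.

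Over all 8 genes, the DKO lists held fewer open sites, as they did near other genes. Within 10 kb of any placed gene they held 20143 and 14733 peaks, against 34289 and 38350 in Wt. The ratio of summed DKO to summed Wt peaks was 0.48 there and 0.34 at the 8 genes. Within 10 kb of the 8 genes the lists held 14 and 12 peaks in DKO replicates 1 and 2, against 39 and 37 in Wt replicates 1 and 2. Merged where they overlapped by at least 1 bp, these made 51 regions, of which 21 (41.2%) were listed in both Wt libraries and in neither DKO library, where 28.8% of regions near any placed gene were. Of the 29 regions that both Wt lists held at these genes, 21 (72.4%) were absent from both DKO lists, close to the 71.6% near any placed gene. Regions listed in all 4 libraries numbered 3 of 51, at Acadm, Ppara and Pparg, where 5.29% near any placed gene were. A region in both Wt lists and in neither DKO list lay at 7 of the 8 genes, Cpt2 being the exception, and at 70.7% of all placed genes. Among genes called higher in DKO, 70.5% had one, and among genes called lower, 71.9%.

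No region at the 8 genes was listed in both DKO libraries and in neither Wt library, where 3.63% of regions near any placed gene were. Without DKO replicate 1 this count was 4 of 45, where 17.7% of all regions in the genome had the pattern. Without DKO replicate 2 it was 6 of 49, where 33.6% had it, and without Wt replicate 1 it was 1 of 47, where 5.9% had it. Of the 20 regions listed in 1 library only, 10 were in DKO and 10 in Wt libraries. With each ATAC list shortened to its 23961 strongest peaks, the regions listed in both Wt and in neither DKO library numbered 9 of 32 at these genes (28.1%), against 19.9% of all regions in the genome at that length and 23.8% of them with the full lists. The DKO lists are shorter than the Wt lists. DKO replicate 1 had the longer DKO list, yet it held a peak on 13.8% of all start windows, against 29.5% for DKO replicate 2. The part of depth, and of such differences between libraries, in these counts was not tested. No test of a single region was made.

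**Figure D4:**
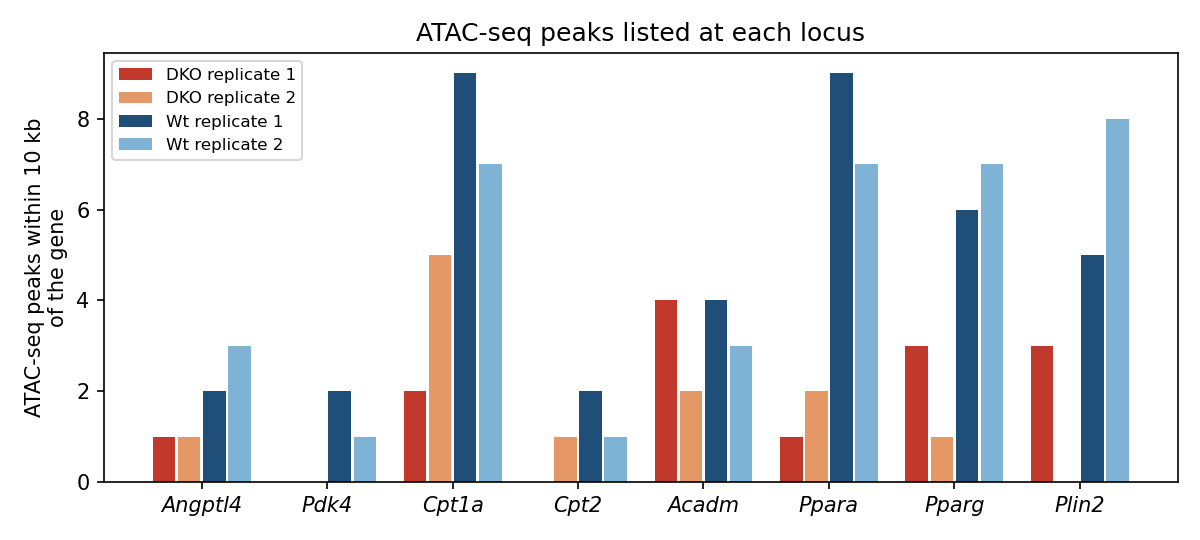
Number of ATAC peaks listed within 10 kb of each gene, by library. At Ppara the bars reach 1 and 2 in DKO against 9 and 7 in Wt, while at Acadm DKO replicate 1 and Wt replicate 1 both reach 4.

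Start windows held fewer peaks in DKO than in Wt. Of the 9 windows, 4 held a peak in each DKO library, against 8 in each Wt library, where the shares of all 14964 windows were 13.8% and 29.5% in DKO, against 69.1% and 71% in Wt. Windows listed in all 4 libraries numbered 2 of 9, those of Acadm and the first Pparg start, against 10.9% of all windows. Windows listed in both Wt and neither DKO library numbered 2 of 9 at these genes, against 36.8% of all windows. With DKO replicate 1 or DKO replicate 2 left out the count was 4, and the share of all windows was not counted there. With all 4 libraries, 31.6% of windows of genes called higher in DKO had this pattern, and 37.5% of those of genes called lower. Cdx2 peaks lay within 10 kb of 2 of the 8 genes, Pparg and Plin2, where 18.9% of placed genes had one, with 18.4% among genes called higher in DKO and 23.2% among genes called lower.

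The wider pathway moved in both directions. Of 116 further genes on 10 lists, 106 were in the table. The authors' deposited table had 32 called higher and 29 called lower, with a median log2 fold change of -0.10, against -0.02 over all genes. Over all genes, 18.5% were called higher and 18.3% lower. At 2-fold or more the authors' deposited table had 24 higher and 13 lower, where 11% of all genes were higher and 13.2% lower. At any fold, 57.5% of the pathway genes were called in either direction, against 36.8% of all genes. Of the 93 averaging at least 50 normalized counts 60.2% were called, where 44.3% of all genes at that level were.

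Of 19 mitochondrial beta-oxidation genes, the authors' deposited table had 9 called lower and 3 called higher, with a median of -0.34. Over all genes, 18.3% were called lower and 18.5% higher. At 2-fold or more, 5 of the 19 were lower and 3 higher, where 13.2% of all genes were lower and 11% higher. The largest decreases were those of acyl-CoA dehydrogenases, with the short-chain enzyme Acads at -1.75 (SE 0.19), Acad11 at -1.91 (SE 0.25) and Acad12 at -2.09 (SE 0.35) in the authors' deposited table. The long-chain dehydrogenase Acadl was among the 3 higher, at 1.01 (SE 0.25), whereas the very-long-chain dehydrogenase Acadvl fell, at -1.07 (SE 0.19). Acot2, a thioesterase that frees fatty acids from coenzyme A, was also higher, at 2.00 (SE 0.42) in the authors' deposited table. Acot2 has a close copy in Acot1, and the authors' counting could split reads between them. In the carnitine shuttle, 2 of 8 were lower and 1 higher, with the carnitine carrier Slc25a20 at -0.94 (SE 0.24) and the peroxisomal transferase Crot at 1.45 (SE 0.26) in the authors' deposited table. Among 5 ketone body genes 1 fell and none rose in the authors' deposited table (0 higher also at an unadjusted p under 0.05), namely the thiolase Acat1 at -0.77 (SE 0.24). A count of 1 lower of 5 lies near the 18.3% of all genes called lower.

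Among 14 peroxisomal genes, the authors' deposited table had 3 called higher and 2 called lower, with a median of 0.11. These counts lie near the 18.5% of all genes called higher and the 18.3% called lower. Acox2, the oxidase for branched chains and bile acid precursors, stood at 4.19 (SE 0.53), the bifunctional enzyme Ehhadh at 0.81 (SE 0.32) and the peroxisome division factor Pex11a at 0.95 (SE 0.23) in the authors' deposited table.

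Of 12 further PPAR targets, 8 were in the authors' deposited table, which called 6 higher and 1 lower. Over all genes, 18.5% were called higher and 18.3% lower. The median of the list was 1.89, or 1.60 over the 6 with a mean of at least 50. A target near silent in Wt may be in the table through its level in DKO, so these counts do not cover the list. Vnn1, a pantetheinase, had 4.10 (SE 0.28), the thioesterase Acot1 2.20 (SE 0.39) and malic enzyme Me1 1.85 (SE 0.32) in the authors' deposited table. Pck1, which starts gluconeogenesis and glycerol synthesis, had -2.81 (SE 0.33) in the authors' deposited table.

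Genes around Angptl4, Plin2 and Pdk4 moved in both directions. Lpl, the lipase that Angptl4 inhibits, stood at -4.68 (SE 0.44), its maturation factor Lmf1 at -1.23 (SE 0.34) and the lipase activator Apoc2 at 3.48 (SE 1.55) in the authors' deposited table. That list counted 1 higher and 2 lower of 5 measured, where 18.5% of all genes were called higher and 18.3% lower. Of 14 lipid droplet genes in the authors' deposited table, 6 rose and 3 fell, with the triglyceride synthase Dgat2 at 2.22 (SE 0.24), the droplet protein Hilpda at 2.45 (SE 0.47), the coat protein Plin3 at 0.93 (SE 0.19) and the lipase Mgll at -1.17 (SE 0.32). Of 9 pyruvate dehydrogenase genes in the authors' deposited table, 5 rose and 2 fell. Its kinases differed, with Pdk1 at 2.07 (SE 0.21) and Pdk2 at -1.04 (SE 0.30), while the phosphatase Pdp1 had 1.51 (SE 0.42) and the subunit gene Pdha1 1.36 (SE 0.18) in the authors' deposited table.

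Uptake genes and receptor partners were also mixed. Of 13 uptake and activation genes in the authors' deposited table, 5 rose and 3 fell, where 18.5% of all genes were called higher and 18.3% lower. The binding proteins parted, with Fabp5 at 6.54 (SE 0.27) and Fabp1 at 2.40 (SE 0.70) against Fabp2 at -4.14 (SE 0.30), and the acyl-CoA synthetase Acsl1 had 1.47 (SE 0.31) in the authors' deposited table. Of 11 receptor partners and cofactors in the authors' deposited table, 2 rose and 4 fell. At 2-fold or more 1 was higher and 0 lower, where 11% of all genes were higher and 13.2% lower. The counts at that fold do not exceed what these shares give. Ppard, the remaining PPAR, stood at -0.99 (SE 0.22), and the coactivators Ppargc1a and Ppargc1b at -0.86 (SE 0.37) and -0.70 (SE 0.29), while the lipin Lpin1 had 2.50 (SE 0.37) in the authors' deposited table.

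**Figure D5:**
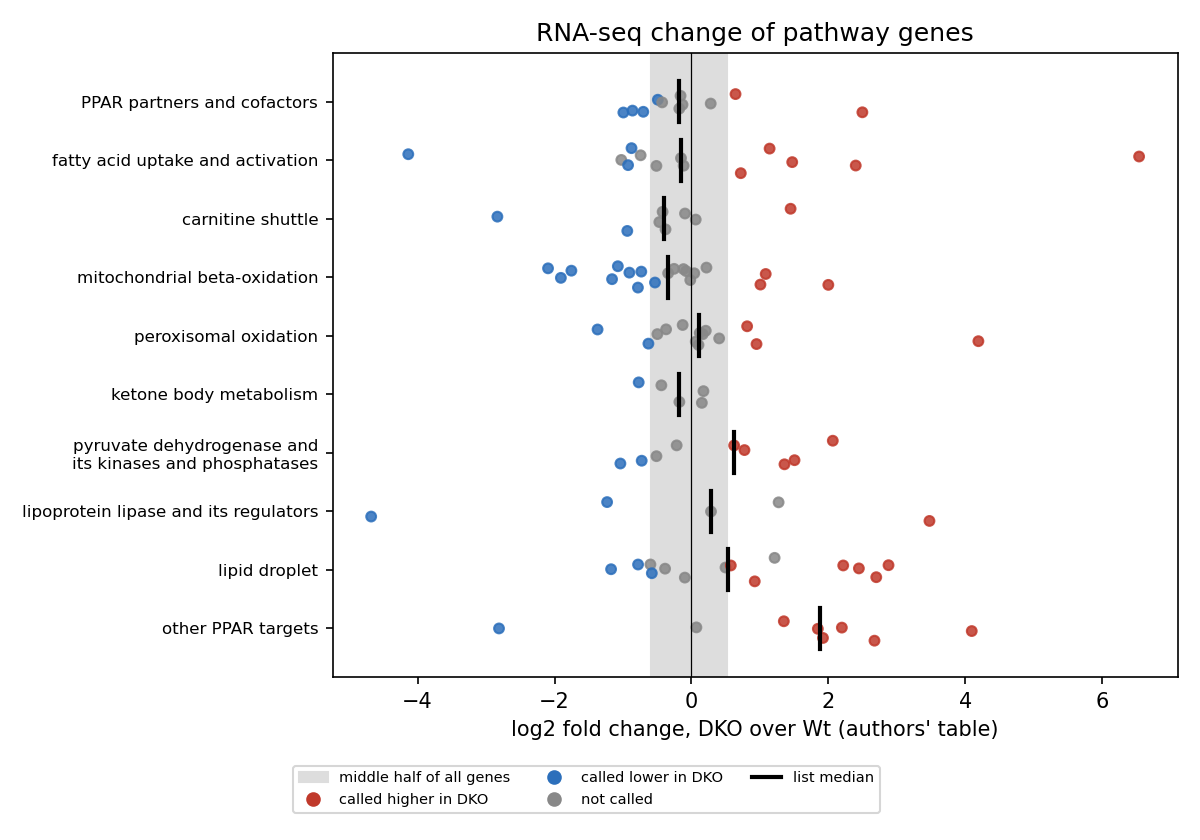
Log2 fold change, DKO over Wt, of 106 pathway genes by list in the authors' deposited table, with list medians as black bars and the middle 50% of all genes shaded. Mitochondrial beta-oxidation has 9 genes called lower and 3 higher, and the further PPAR targets have 6 called higher and 1 lower.

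Markers of several other cell types differed between the groups. Over all genes, 18.5% were called higher and 18.3% lower. Smooth muscle, fibroblast and endothelial markers were lower in 6 of 6, 6 of 6 and 4 of 4 in the authors' deposited table, with medians of -8.15, -4.83 and -4.71. Of 8 measured adipocyte markers 6 were lower, among them Adipoq at -8.28 (SE 2.88), and 2 higher, Fabp4 at 4.08 (SE 0.38) and Cidec at 0.94 (SE 0.34), in the authors' deposited table. In the authors' deposited table all 5 neutrophil markers rose, with a median of 2.60, and 3 of them averaged at least 50 normalized counts. Csf3r and Cxcr2 averaged 42.1 and 44.5, against 2958 for Ly6g. Of 8 macrophage markers 1 rose and 2 fell in the authors' deposited table, which lies near the shares of all genes. For B and plasma cells 4 of 5 markers fell. Among the epithelial markers 2 of 6 were higher and 1 lower, with Epcam at -0.22 (SE 0.19) and Krt8 at -0.20 (SE 0.18), both not called, in the authors' deposited table. Their means were 39413 and 159960 normalized counts. Absorptive colonocyte and goblet cell markers were lower in 7 of 7 each in the authors' deposited table, with medians of -1.86 and -4.39. Summed marker levels per library could not be had for want of gene values per library. Lpl and Pparg are also made by fat cells, and Plin2 and Angptl4 by macrophages, and the part of these cells in the values above was not tested.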

How the data were processed

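RNA-seq, ATAC-seq and Cdx2 ChIP-seq libraries were grouped by title. Tools listed in the submitters' processing notes are DESeq2, Salmon 1.3.0, MACS2, fastp, Bowtie2 and BWA, and GRCm38 and mm10 are the builds listed, with no role given. Estimated counts per transcript were deposited by the authors, with Salmon columns per the file headers, and served here for library totals only. The gene table held, per the file headers, a signal that is the authors' mean normalized count, log2 fold changes with SE, and the authors' p-values with adjusted p. Benjamini-Hochberg adjustment of the deposited p returned the deposited adjusted p in all 17511 genes. Fold over SE returned the deposited p in only 1751 genes, so the folds may be shrunken. The direction DKO over Wt comes from the table's name. Of 26 transcripts and 24 genes of very high level, 4 and 3 were lower by over 4 on the log2 scale and 0 of either higher. Peak lists, called per library by their peak names, gave the authors' fold enrichment ratio, score, -log10 p and -log10 q per the file format, from a -log10 q of 1.30 in ATAC.

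Peaks and genes were joined in Python 3.11.15 with numpy 2.4.6 and pandas 2.3.3, after the region, adjustment and motif code was tested on simulated data. Genes were placed by gene number on RefSeq spans of GRCm38.p6, which matched 14876 of 17511 (85%) and all 8 members, and starts came from RefSeq promoters. The planned edgeR and DESeq2 fits per gene were not run, since transcripts could not be paired with genes, and no gene of like pattern over libraries is named for the same reason. Named genes are the 8 members and, per list, up to 4 called genes with a mean of at least 50 and the largest change, of which 1 is not reported here. Cdx1, Cdx2, Acadl, Acadvl and single cell type markers were named after their values were seen. Members and lists were chosen with earlier results of these data known.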

Additional observations from a re-analysis of the deposited data

How the results depend on the processing

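No paired analysis was possible because the gene values come from the authors' table without values per library, and peak lists were compared without a test. Requiring at least 2-fold left 3 members higher and 0 lower in the authors' table (with no minimum fold, 1, Cpt2, was lower at an unadjusted p under 0.05), where 11% of all genes were higher and 13.2% lower, and 24 pathway genes higher and 13 lower, against 32 and 29 at any fold. A mean of at least 50 with p readjusted changed no call among the 8 genes, and a threshold of 0.01 ended that of Pdk4 alone. Cdx2 peaks at members numbered 3 in gene spans only, 10 within 50 kb and 3 at a -log10 q of at least 5, against 5 within 10 kb. Members with a peak numbered 2 in gene spans only and 3 within 50 kb, where 11.9% and 36.7% of placed genes had one. Regions in both Wt and neither DKO list numbered 15 of 35 in gene spans only (42.9%), where 23.8% of all regions in the genome had this pattern. At a -log10 q of at least 5 they numbered 14 of 25 (56%), where 45.2% of all regions had it. Within 50 kb they numbered 53 of 115 (46.1%), against 23.8% of all regions. The share near placed genes, 28.8% within 10 kb, was not counted under these settings. In the opposite case within 50 kb were 3, all at Acadm, where 4.98% of all regions were. With lists of equal number, chosen after seeing the data, regions in both Wt and neither DKO list numbered 9 of 32, against 19.9% of all regions. Those in the opposite case numbered 1 of 32, against 8.03%. Leaving out 1 ATAC library gave 22 to 29 regions in the Wt lists alone of 45 to 49 (29.5% to 45.2% of all regions in the genome). It gave 0 to 6 in the opposite case (5.9% to 33.6% of all), and 2 to 4 of 9 start windows listed in Wt alone. The Pdk4 and second Pparg starts kept their pattern with each ATAC library left out, with lists of equal number and at a -log10 q of at least 5, while the first Pparg start was no longer listed in all 4 libraries under the last 2 of these. Under those same 2 settings the Ppara start window was listed in both Wt libraries and in neither DKO library. The start windows were added after seeing the data. Per-library RNA depth cannot be weighed for single genes here.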
